A study of Mus musculus with 6 samples.

Results

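A set of 9 genes of mitochondrial pyruvate oxidation was followed in the livers of female mice whose fathers had been given inorganic arsenic. They encode both chains of the first enzyme of the pyruvate dehydrogenase complex (Pdha1 and Pdhb) and 7 enzymes or enzyme chains of the citric acid cycle (Cs, Idh3a, Ogdh, Suclg1, Suclg2, Fh1 and Mdh2). The genes were taken by name from a table of 17624 genes, and all 9 were found once. RNA-seq of liver was available for 3 mice of the iAsF1-F group and 3 of the conF1-F group. The iAsF1-F mice are F1 daughters of C57BL/6 males that drank water with inorganic arsenic (iAs) before mating with unexposed females, and the conF1-F mice are daughters of control breedings. Both groups are C57BL/6 females that were themselves never given iAs, and the labels give no age. The labels say that the livers were harvested fed, whereas a figure legend of the study gives refeeding, and the sources used here do not settle which holds for these livers. The labels do not say which litters the mice came from, so the spread between livers may include litter. The values are RPKM, reads scaled by transcript length and by the reads of the library, and those of single livers are given in the order of replicates 1, 2 and 3.

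Pyruvate made from glucose, lactate and amino acids enters the mitochondrion through a carrier and is either oxidized by pyruvate dehydrogenase to acetyl-CoA or carboxylated by pyruvate carboxylase to oxaloacetate, a substrate of gluconeogenesis. The cycle condenses acetyl-CoA with oxaloacetate to citrate, releases the carbon as carbon dioxide and passes the electrons to NADH and FADH2. In liver, pyruvate dehydrogenase kinases switch the complex off during fasting, when the organ makes glucose instead of burning it. The study asked how the liver transcriptome differs between iAsF1-F and conF1-F, and the comparison here puts that question to these genes.

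None of the members was called. Of the 9, 8 averaged 1 RPKM or more across all 6 livers and were tested with limma, and 0 passed an adjusted p of 0.05, against 0.248% of the 6448 genes tested. At an unadjusted p under 0.05 the count was again 0, against 5.12% of all tested genes, and the groups overlapped in all 8 tested members, whereas in 11.5% of all tested genes they stood apart. Without iAsF1-F replicate 1 the groups stood apart in 3 members, and without conF1-F replicate 3 in 2. They did so in 1 member without iAsF1-F replicate 2, iAsF1-F replicate 3 or conF1-F replicate 2. Groups of fewer livers stand apart more easily. The share of all tested genes was not taken for these fits, so these counts are not read as a result. The log2 fold change, taken on log2(RPKM + 1) as iAsF1-F over conF1-F, was above 0 in 4 members and below 0 in 4, with a median of -0.04, beside -0.001 over all tested genes. The members were of 2 kinds. Cs, Suclg1, Fh1 and Mdh2 were steady, with a coefficient of variation of 4.69% to 9.85% over the 6 livers. Pdha1, Pdhb, Idh3a, Ogdh and Suclg2 varied by 51.6% to 155%, and 2 of them, Pdhb and Ogdh, were listed at 0 in some livers.

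**Figure D1:**
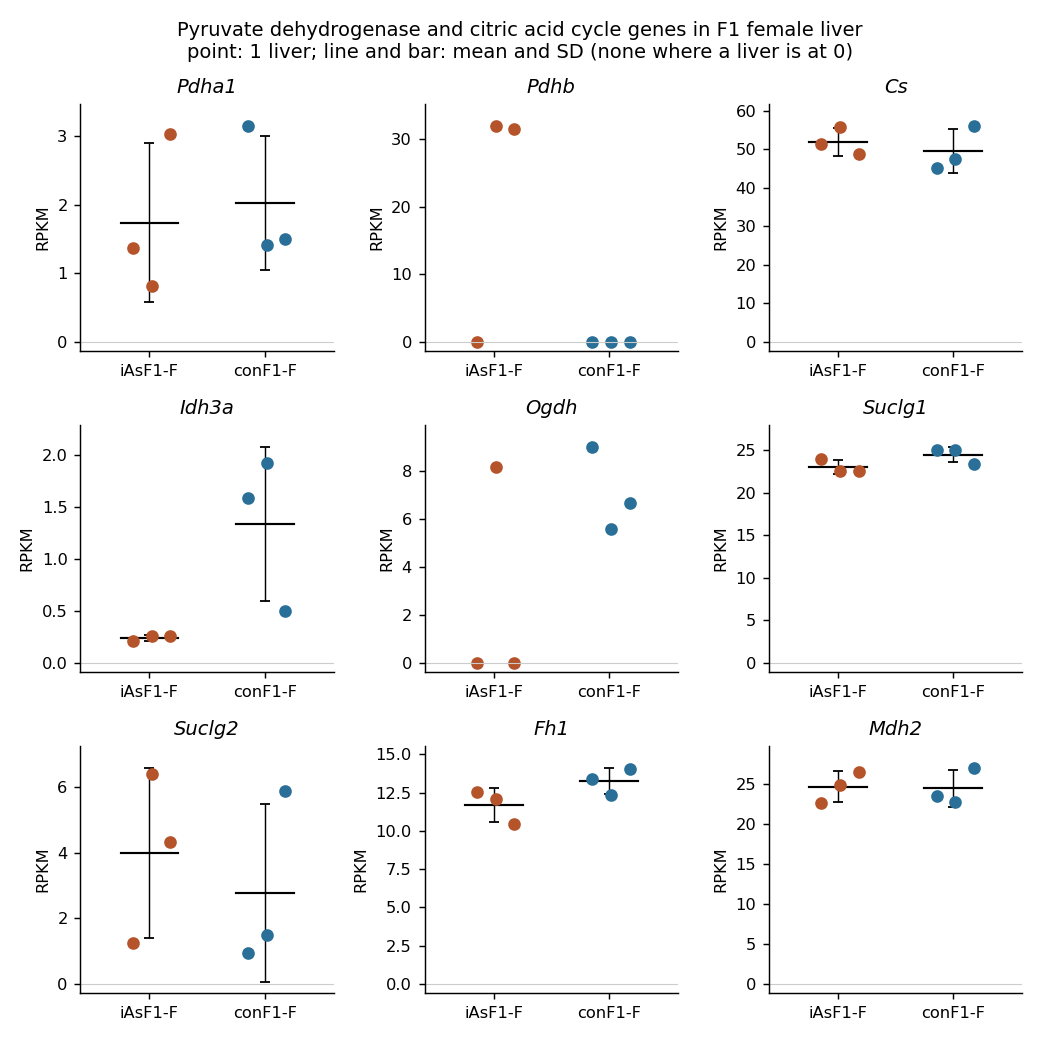
RPKM (vertical axes, from 0) of the 9 members in 3 iAsF1-F livers (left in each panel) and 3 conF1-F livers (right), each point 1 liver in replicate order, with the group mean and SD where no liver is listed at 0. Cs, Suclg1, Fh1 and Mdh2 lie close together in both groups, Pdhb is above 0 in 2 iAsF1-F livers only, and the 3 iAsF1-F values of Idh3a lie below the 3 conF1-F values.

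The sequences of 2 members bear on how their values can be read, since both have a processed pseudogene, an intronless copy elsewhere in the genome, that is also listed in the table. Pdhb (chr14:8165996-8173025 in GRCm38, minus strand) shares 30.3% of its 50-base stretches with Gm6123 (chr1:4771131-4772199). Suclg2 (chr6:95473009-95718800, minus strand) shares 21.8% with Gm15163 (chrX:157016229-157017530). A read from such a stretch has equal matches in the gene and in the copy, and the sources used here do not state how such reads were assigned. The longest shared run inside each coding sequence follows with its flanks, from GENCODE transcripts of GRCm38, 5′ to 3′, with the bases that differ in capitals. For Pdhb it is 171 bases within bases 207 to 392, all coding, counted from the 5′ end of a transcript of 1513 bases.
Pdhb: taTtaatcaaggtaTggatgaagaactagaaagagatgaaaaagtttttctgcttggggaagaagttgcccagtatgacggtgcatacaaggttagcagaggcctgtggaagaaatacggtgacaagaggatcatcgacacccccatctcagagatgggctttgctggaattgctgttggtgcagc
Gm6123: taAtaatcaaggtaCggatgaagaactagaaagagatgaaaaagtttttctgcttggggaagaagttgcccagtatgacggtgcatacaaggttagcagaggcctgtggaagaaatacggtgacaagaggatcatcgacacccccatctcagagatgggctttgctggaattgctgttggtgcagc
For Suclg2 it is 231 bases within bases 691 to 951, all coding, counted from the 5′ end of a transcript of 3367 bases.
Suclg2: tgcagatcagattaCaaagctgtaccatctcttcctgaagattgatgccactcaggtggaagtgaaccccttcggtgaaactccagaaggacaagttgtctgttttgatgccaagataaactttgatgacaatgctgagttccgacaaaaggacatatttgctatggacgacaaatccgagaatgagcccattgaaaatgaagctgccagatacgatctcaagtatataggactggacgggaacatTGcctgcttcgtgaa
Gm15163: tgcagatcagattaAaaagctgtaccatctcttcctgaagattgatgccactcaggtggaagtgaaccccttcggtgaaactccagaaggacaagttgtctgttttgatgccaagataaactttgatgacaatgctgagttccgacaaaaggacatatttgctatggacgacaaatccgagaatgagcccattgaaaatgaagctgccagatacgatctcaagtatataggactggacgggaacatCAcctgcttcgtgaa
The stretches differ at 2 of 186 bases for Pdhb and at 3 of 261 bases for Suclg2. Of the other members, Cs shares 4% of its 50-base stretches with its protein-coding paralogue Csl and Pdha1 shares 0.464% with a pseudogene, while Idh3a, Ogdh, Suclg1, Fh1 and Mdh2 share 0%. Values are also affected by the number of entries behind them. By their decimals, those of Idh3a, Ogdh and Mdh2 fit means of 4 entries and those of Suclg1 and Fh1 of 3. Those of Pdha1, Pdhb, Cs and Suclg2 fit single entries. Each is the smallest number that fits, so more entries are possible. What an entry stands for is not given in the sources used here.

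The pyruvate dehydrogenase complex commits pyruvate to the cycle, and its first enzyme is a tetramer of alpha chains from Pdha1, which carry the phosphorylation sites, and beta chains from Pdhb. Pdha1 (chrX:160122209-160138413) was low, at 1.36, 0.815 and 3.03 RPKM in iAsF1-F livers, against 3.15, 1.42 and 1.496 RPKM in conF1-F livers. The groups overlapped, with 1 liver near 3 RPKM in each. The log2 fold change was -0.18 (SE 0.39, 95% interval -1.15 to 0.79, adjusted p = 0.956 by limma). Exons of Pdha1 overlap Map3k15 on the opposite strand, and whether the authors counted by strand is not given in the sources used here.

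Pdhb had 0, 31.9 and 31.4 RPKM in iAsF1-F livers, against 0 RPKM in all 3 conF1-F livers. It was thus listed either at 0 or near 31 RPKM, and the single iAsF1-F liver at 0 ties with the conF1-F livers. With conF1-F at 0 no fold is given, and the limma test on log2(RPKM + 1) gave an adjusted p of 0.877 (exact permutation p = 0.4). This result depended on 1 liver. Leaving out iAsF1-F replicate 1, the only iAsF1-F liver at 0, gave an adjusted p of 0.00232 by limma. That fit set the iAsF1-F livers near 31 RPKM against 3 conF1-F livers at 0, with almost no spread within a group. The SE fell from 1.45 to 0.12, so this p follows from which liver was removed. Beta chains are needed by every cell that oxidizes pyruvate, so a value of 0 is given here only as listed. The copy Gm6123 was above 0 in every liver, at 7.07, 5.76 and 5.74 RPKM in iAsF1-F, against 5.16, 6.19 and 6.59 RPKM in conF1-F livers. Its level did not separate the livers with Pdhb at 0 from those without.

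**Figure D2:**
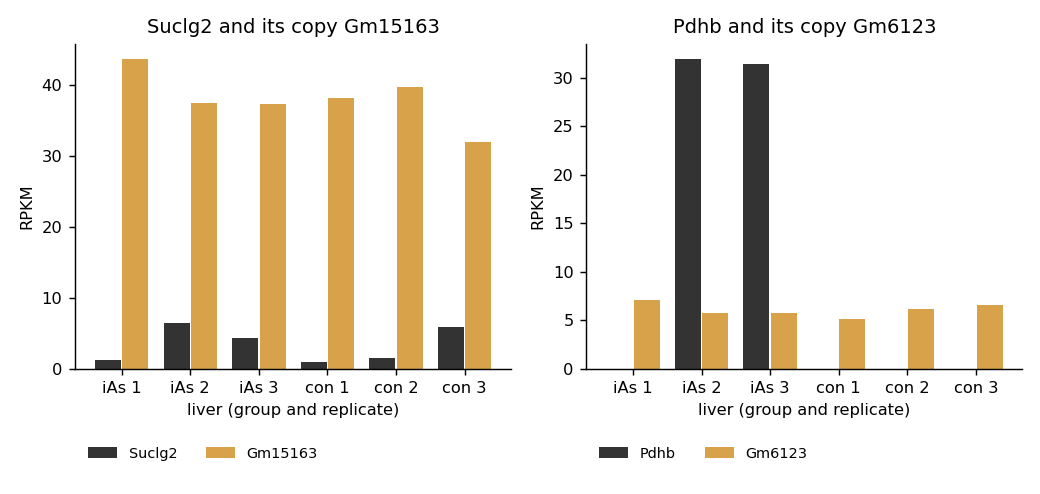
RPKM (vertical axes, from 0) of Suclg2 and Pdhb (dark bars) and of their pseudogene copies Gm15163 and Gm6123 (light bars) in each of the 3 iAsF1-F (iAs) and 3 conF1-F (con) livers. Gm15163 exceeds Suclg2 in all 6 livers, and Gm6123 is between 5.16 and 7.07 RPKM whether Pdhb is listed at 0 or near 31 RPKM.

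The other enzymes of the complex, Dlat and Dld, overlapped between the groups too, while Pdhx, which tethers Dld, was listed near 0. Dlat, the acetyltransferase core, had 2.31, 3.36 and 0.791 RPKM in iAsF1-F livers, against 3.87, 1.47 and 3.49 RPKM in conF1-F livers (log2 fold change -0.35, SE 0.44, adjusted p = 0.877 by limma). Dld, the dihydrolipoamide dehydrogenase shared with the 2-oxoglutarate complex, had 44.9, 41.4 and 46.4 RPKM in iAsF1-F livers, against 38.5, 45.4 and 49.1 RPKM in conF1-F livers. Both pairs of groups overlapped, and Dld differed by 0.00 on the log2 scale (95% interval -0.27 to 0.27). Pdhx was under the minimum mean and was not tested by limma, with 0.616, 0.465 and 0.163 RPKM in iAsF1-F livers, against 0 RPKM in all 3 conF1-F livers. Its groups did not overlap, with iAsF1-F above (exact permutation p = 0.1). With no minimum, the groups did not overlap in 8.12% of 17545 genes.

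Citrate synthase, the product of Cs, makes citrate in the first step of the cycle and is a common measure of mitochondrial content. Cs (chr10:128337734-128362479) was the highest member in every liver, at 51.4, 55.9 and 48.7 RPKM in iAsF1-F, against 45.1, 47.6 and 56.1 RPKM in conF1-F. The groups interleaved, averaging 52.0 ± 3.63 RPKM in iAsF1-F livers and 49.6 ± 5.76 RPKM in conF1-F livers (SD, n = 3 each). The log2 fold change was 0.07 (SE 0.11, 95% interval -0.19 to 0.34, adjusted p = 0.897 by limma). Its paralogue Csl, a second citrate synthase gene, was listed at only 1.83 to 2.14 RPKM over the 6 livers.

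Idh3a encodes the catalytic alpha chain of NAD-dependent isocitrate dehydrogenase, the step that releases the first carbon dioxide. It was the only member of the 9 whose groups did not overlap, and it lay under the minimum mean. Idh3a (chr9:54586334-54604661) had 0.209, 0.258 and 0.259 RPKM in iAsF1-F livers, against 1.58, 1.92 and 0.498 RPKM in conF1-F livers. All iAsF1-F values were within a narrow band, averaging 0.242 ± 0.0283 RPKM against 1.33 ± 0.743 RPKM in conF1-F livers (SD, n = 3 each). The difference on log2(RPKM + 1) was -0.85, with an exact permutation p of 0.1, the smallest that 3 against 3 can give. When limma was run with no minimum, the unadjusted p of Idh3a was 0.0342 and its adjusted p 0.819. In that fit 3.41% of 17545 genes had an unadjusted p under 0.05 and the groups did not overlap in 8.12%, with iAsF1-F below in 4.25%, and the 1 member of 9 is read against these shares. The conF1-F livers differed among themselves by more than the gap between the nearest livers of the 2 groups.

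The other chains of the same enzyme did not follow this order. Idh3g, a regulatory chain, had 3.43, 3.83 and 3.79 RPKM in iAsF1-F, against 3.04, 3.81 and 3.64 RPKM in conF1-F livers, with overlapping groups. Idh3b, the other regulatory chain, was listed at 14.98, 0 and 16.7 RPKM in iAsF1-F and at 9.14, 0.686 and 6.50 RPKM in conF1-F livers. The ratio of Idh3a to Idh3g within each liver was 0.0610, 0.0674 and 0.0682 in iAsF1-F, against 0.521, 0.504 and 0.137 in conF1-F. The groups did not overlap, and the log2 ratio differed by -2.33 with an exact permutation p of 0.1, or 0.4 after adjustment over the 4 ratios tested.

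Ogdh encodes the first enzyme of the 2-oxoglutarate dehydrogenase complex, which works by the same chemistry as pyruvate dehydrogenase. Ogdh (chr11:6291633-6356642) had 0, 8.18 and 0 RPKM in iAsF1-F livers, against 9.02, 5.61 and 6.69 RPKM in conF1-F livers. All conF1-F livers were above 5 RPKM, and the single iAsF1-F liver above 0 lay among them. The log2 fold change was -1.93 (SE 0.94, 95% interval -4.28 to 0.42, adjusted p = 0.877 by limma, exact permutation p = 0.3). This value rested on the entries listed at 0. Without iAsF1-F replicate 2, which left iAsF1-F livers at 0 alone, Ogdh passed with an adjusted p of 0.03, and with 0s treated as missing, a setting chosen after seeing the data, the log2 fold change turned to 0.20 with an adjusted p of 0.905. Ogdh shares no 50-base stretch with another gene. Its partner Dlst, the succinyltransferase core of the complex, was also listed at 0 in 2 livers, with 44.4, 46.6 and 0 RPKM in iAsF1-F, against 49.3, 0 and 57.0 RPKM in conF1-F. The livers with Dlst at 0 were 1 of each group, and iAsF1-F replicate 3 was the only one at 0 for both Ogdh and Dlst.

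Succinyl-CoA ligase makes GTP or ATP as succinate is formed, and its alpha chain, from Suclg1, pairs with a GTP-forming beta chain from Suclg2 or an ATP-forming one from Sucla2. Suclg1 (chr6:73248382-73276911) had 23.96, 22.6 and 22.5 RPKM in iAsF1-F livers, against 25.02, 25.03 and 23.4 RPKM in conF1-F livers. Of the iAsF1-F livers, 2 of 3 lay below every conF1-F liver, and the log2 fold change was -0.09 (SE 0.07, 95% interval -0.25 to 0.08, adjusted p = 0.877 by limma). Suclg1 was the steadiest of the members. Suclg2 had 1.24, 6.41 and 4.32 RPKM in iAsF1-F livers, against 0.928, 1.48 and 5.88 RPKM in conF1-F livers, with low and high livers in both groups. Its log2 fold change was 0.48 (SE 0.66, 95% interval -1.19 to 2.14, adjusted p = 0.888 by limma).

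The pseudogene Gm15163 carried more of the signal than Suclg2 itself, at 43.6, 37.5 and 37.4 RPKM in iAsF1-F livers, against 38.3, 39.8 and 32.0 RPKM in conF1-F livers. This was 5.44 to 41.2 times the value of Suclg2, and the groups overlapped. The 3 livers with the highest Suclg2 were the 3 with the lowest Gm15163, an ordering noticed after the values were seen. How much of either value comes from reads that fit both was not tested. Sucla2, which shares no such stretch, had 10.9, 11.2 and 11.4 RPKM in iAsF1-F livers, against 10.3, 10.8 and 10.4 RPKM in conF1-F livers. Its groups did not overlap, but the log2 fold change was only 0.08 (SE 0.07, adjusted p = 0.877 by limma). The ratio of Suclg2 to Sucla2 was 0.114, 0.572 and 0.380 in iAsF1-F livers, against 0.0898, 0.137 and 0.564 in conF1-F livers, and did not separate the groups (exact permutation p = 0.7).

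Fumarase, from Fh1, hydrates fumarate to malate, and Mdh2 oxidizes malate to oxaloacetate and so closes the cycle. Fh1 (chr1:175600374-175625635) had 12.5, 12.1 and 10.5 RPKM in iAsF1-F livers, against 13.4, 12.3 and 14.1 RPKM in conF1-F livers. The groups overlapped by 1 liver each, and the means were 11.7 ± 1.09 RPKM in iAsF1-F livers and 13.3 ± 0.863 RPKM in conF1-F livers (SD, n = 3 each). The log2 fold change was -0.17 (SE 0.10, 95% interval -0.42 to 0.08, adjusted p = 0.877 by limma). Mdh2 (chr5:135778480-135790398) had 22.6, 24.8 and 26.5 RPKM in iAsF1-F livers, against 23.5, 22.7 and 27.0 RPKM in conF1-F livers, 2 ranges that nearly coincide. Its log2 fold change was 0.01 (SE 0.10, 95% interval -0.24 to 0.27, adjusted p = 0.999 by limma). The ratio of Mdh2 to Cs, which uses the oxaloacetate that Mdh2 makes, was 0.440, 0.444 and 0.544 in iAsF1-F, against 0.522, 0.477 and 0.482 in conF1-F livers and overlapped as well (exact permutation p = 0.6).

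By level per transcript length, the members ordered as Cs with a mean of 50.8 RPKM over the 6 livers, Mdh2 with 24.5, Suclg1 with 23.8 and Fh1 with 12.5. Cs lay above Mdh2 and Suclg1 in every liver and these above Fh1, while Mdh2 and Suclg1 overlapped and their order was not fixed. Suclg2, Pdha1 and Idh3a followed, with means of 3.38, 1.88 and 0.788 RPKM, and the ranges of all 3 overlapped, so that their order is not fixed either. Pdhb and Ogdh, listed at 0 in 4 and 2 livers, have no place in this order. The order is of values as listed, which are not alike between genes. By their decimals, values of Cs, Suclg2 and Pdha1 fit single entries. Those of Mdh2 and Idh3a fit means of 4 entries, and those of Suclg1 and Fh1 of 3, each the smallest number that fits. Suclg2 also shares stretches with its copy. The part of these differences in the order was not tested.

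**Figure D3:**
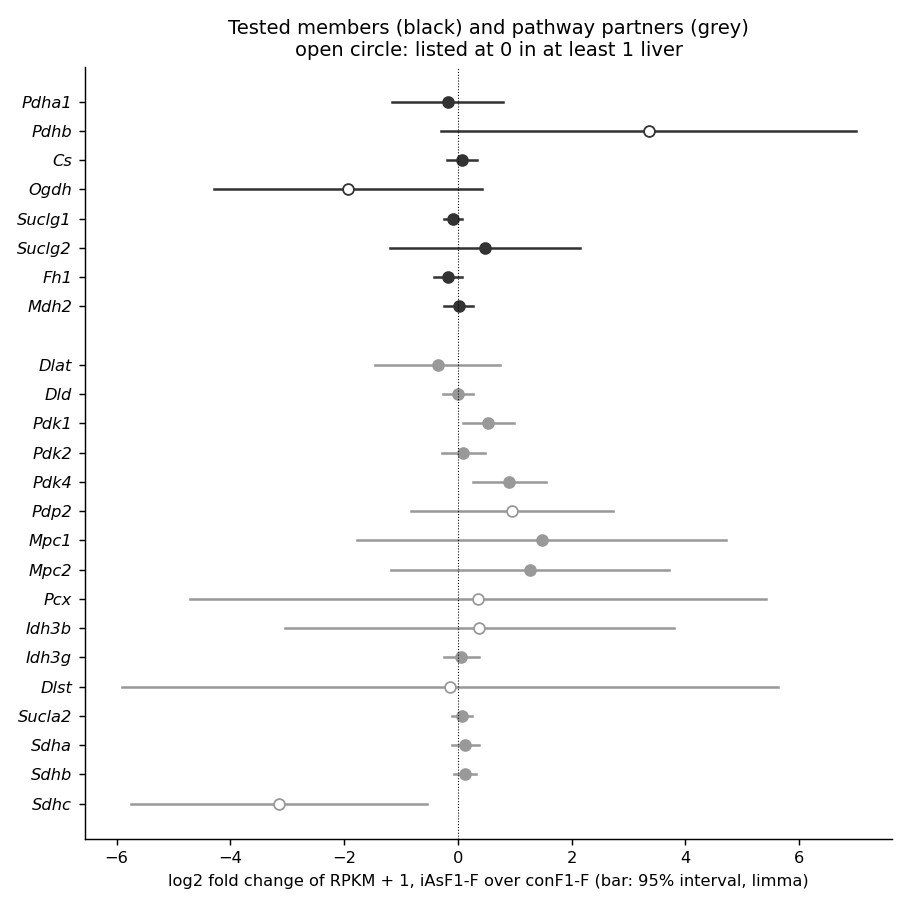
Log2 fold change of RPKM + 1, iAsF1-F over conF1-F, with its 95% interval from limma (horizontal axis) for the 8 tested members (black) and 16 tested partners (grey); open circles mark genes listed at 0 in at least 1 liver, whose fitted values depend on the 1 RPKM added. The intervals of all 8 members include 0, those of Pdhb and Ogdh are the widest among the members, and the intervals of Pdk1, Pdk4 and Sdhc leave out 0 before adjustment.

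The rest of the pathway was taken from lists of 46 symbols, 1 of them (Pc) another name of a listed gene, of which 38 were in the table and 34 were tested. None passed the adjusted p, and 5 of the 34, or 14.7%, had an unadjusted p under 0.05, against 5.12% of all tested genes: Pdk1, Pdk4, Acly and Glud1, higher in iAsF1-F (2.75% of all tested genes), and Sdhc, lower (2.37% of all tested genes). In 7 of the 34 the groups stood clear of each other, against 11.5% of all tested genes in either direction. Each of the 7 had iAsF1-F above, a pattern of 5.83% of all tested genes, and the direction was not set beforehand. The median log2 fold change of the 34 was 0.12. The count of 5 was 0 without iAsF1-F replicate 1, 2 without conF1-F replicate 2 and 3 without iAsF1-F replicate 2, conF1-F replicate 1 or conF1-F replicate 3. In these fits 4% to 5.22% of all tested genes had such a p. The 2 pyruvate dehydrogenase kinases among the 5 genes phosphorylate the Pdha1 product and so switch the complex off. Pdk4, the kinase known to be induced by fasting and lowered by feeding, had 4.36, 3.83 and 2.48 RPKM in iAsF1-F livers, against 1.96, 0.878 and 1.46 RPKM in conF1-F livers. Pdk1 had 5.18, 4.19 and 3.60 RPKM in iAsF1-F livers, against 3.27, 2.21 and 2.55 RPKM in conF1-F livers. All iAsF1-F livers lay above all conF1-F livers for both kinases. The log2 fold changes by limma were 0.91 for Pdk4 (SE 0.26, unadjusted p = 0.015, adjusted p = 0.877) and 0.53 for Pdk1 (SE 0.18, unadjusted p = 0.0276, adjusted p = 0.877), and over the alternatives the adjusted p of Pdk4 was 0.612 to 0.923 and that of Pdk1 0.792 to 0.923. Pdk2, the kinase listed highest in these livers, had 9.82, 9.18 and 7.34 RPKM in iAsF1-F, against 9.13, 8.32 and 6.92 RPKM in conF1-F livers and overlapped (log2 fold change 0.10, SE 0.15). Pdp2, a phosphatase that switches the complex on again, had 5.59, 4.53 and 4.63 RPKM in iAsF1-F, against 0, 4.47 and 4.23 RPKM in conF1-F livers, with 1 conF1-F liver listed at 0. For Pdp2 too, all iAsF1-F livers lay above all conF1-F livers (log2 fold change 0.95, SE 0.70, unadjusted p = 0.233, adjusted p = 0.877 by limma). Pdk3, Pdp1 and Pdpr were above 0 in 1 liver each and were not tested.

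**Figure D4:**
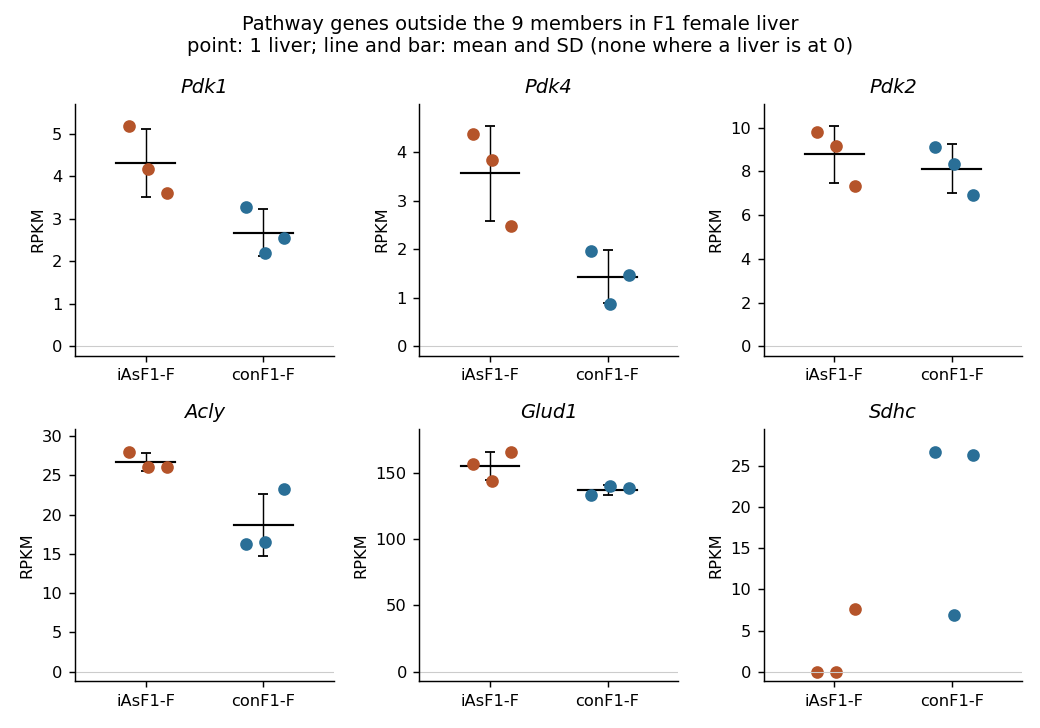
RPKM (vertical axes, from 0) of Pdk1, Pdk4, Pdk2, Acly, Glud1 and Sdhc in 3 iAsF1-F livers (left in each panel) and 3 conF1-F livers (right), each point 1 liver in replicate order, with the group mean and SD where no liver is listed at 0. The iAsF1-F livers lie above the conF1-F livers for Pdk1, Pdk4, Acly and Glud1, and the groups overlap for Pdk2 and Sdhc.

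At the entry of pyruvate, no gene separated the groups. Mpc1 and Mpc2 form the mitochondrial pyruvate carrier, and each had 1 low conF1-F liver: Mpc1 had 27.0, 18.1 and 31.7 RPKM in iAsF1-F, against 30.1, 20.6 and 0.218 RPKM in conF1-F livers. Mpc2 had 32.4, 31.8 and 38.5 RPKM in iAsF1-F, against 31.9, 2.06 and 29.7 RPKM in conF1-F livers. The low livers were not the same one. Mpc1 shares 23.2% of its 50-base stretches with Mpc1-ps, a pseudogene listed at 81.5 to 98.9 RPKM. Pcx, pyruvate carboxylase and also known as Pc, had 0, 47.3 and 26.7 RPKM in iAsF1-F, against 0, 26.4 and 22.2 RPKM in conF1-F livers, with 1 liver at 0 in each group.

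Of the other cycle enzymes, Sdhc, a membrane anchor of succinate dehydrogenase, had the largest difference, at 0, 0 and 7.66 RPKM in iAsF1-F livers, against 26.8, 6.86 and 26.3 RPKM in conF1-F livers. The highest iAsF1-F liver lay above the lowest conF1-F liver, and the log2 fold change was -3.14 (SE 1.04, unadjusted p = 0.0264, adjusted p = 0.877 by limma, exact permutation p = 0.2). With 0s treated as missing, the log2 fold change of Sdhc was -1.07 with an unadjusted p of 0.287 by limma. The catalytic chains of the same enzyme were well above 0 in every liver. Sdha, the flavoprotein, had 25.3, 25.8 and 26.7 RPKM in iAsF1-F, against 22.0, 22.4 and 26.8 RPKM in conF1-F livers, and Sdhb, the iron-sulfur chain, had 33.1, 31.8 and 35.3 RPKM in iAsF1-F, against 28.7, 30.4 and 32.3 RPKM in conF1-F livers. Both overlapped, with log2 fold changes of 0.13 each.

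Outside the mitochondrial matrix cycle, Acly, which splits exported citrate to acetyl-CoA for lipid synthesis, had 28.0, 26.0 and 26.0 RPKM in iAsF1-F livers, against 16.3, 16.5 and 23.2 RPKM in conF1-F livers. Its groups did not overlap, and the log2 fold change was 0.51 (SE 0.15, unadjusted p = 0.0179, adjusted p = 0.877 by limma, 0.0809 to 0.923 over the alternatives). Glud1, which makes 2-oxoglutarate from glutamate, had 156, 144 and 165 RPKM in iAsF1-F, against 133, 140 and 139 RPKM in conF1-F livers (log2 fold change 0.17, SE 0.07, unadjusted p = 0.049, adjusted p = 0.877 by limma, 0.819 to 0.923 over the alternatives). The unadjusted p of Glud1 lay at the threshold and was 0.052 with no minimum, 0.0527 with robust variances and 0.0672 with rescaling to the nuclear genes. Its groups did not overlap either, and Glud1 shares 8.17% of its 50-base stretches with other genes. Lias, which makes the lipoate carried by Dlat and Dlst, had 2.24 to 2.36 RPKM in iAsF1-F livers, against 2.13 to 2.34 RPKM in conF1-F livers.

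Measures of the whole libraries were set beside these values. All 7 hepatocyte markers were above 0 in every liver and higher on average in iAsF1-F livers, with summed levels of 37021 to 42311 RPKM in iAsF1-F, against 34751 to 41119 RPKM in conF1-F livers. Genes of the mitochondrial genome summed to 46615 to 50212 RPKM in iAsF1-F, against 43319 to 44957 RPKM in conF1-F livers, with no overlap, and 35 of the 35 tested were higher on average in iAsF1-F. With values rescaled to the nuclear genes, the count of called members was again 0, against 16 of 6441 tested genes. Erythroid markers, of which 5 of 5 were above 0 in every liver, summed to 237 to 367 RPKM in iAsF1-F, against 372 to 647 RPKM in conF1-F livers, also with no overlap. Of the 4 erythroid markers tested, 1 was higher on average in iAsF1-F livers, and 3 had an unadjusted p under 0.05 by limma (5.12% of all tested genes). Such a p was reached by 1 of 7 hepatocyte markers and 5 of 35 mitochondrially encoded genes. It was reached by 0 of the Kupffer cell, endothelial and stellate cell markers tested. Kupffer cell markers summed to 44.9 to 110 RPKM in iAsF1-F, against 83.8 to 147 RPKM in conF1-F livers, and the sums overlapped. Only 2 Kupffer cell markers were above 0 in every liver, and 0 of the 4 tested were higher on average in iAsF1-F livers. Endothelial markers summed to 3.59 to 20.4 RPKM in iAsF1-F livers and to 15.01 to 19.4 RPKM in conF1-F livers, and stellate cell markers to 44.0 to 45.4 RPKM in iAsF1-F livers and to 39.96 to 52.0 RPKM in conF1-F livers. In each of these 2 lists 2 markers were above 0 in every liver. Of those tested, 0 of 2 endothelial and 1 of 3 stellate cell markers were higher on average in iAsF1-F livers. Of 4 cholangiocyte markers only 1 was in the table, and this marker, Sox9, was at 0 in 4 livers. The part of these differences in the values above was not tested, and in bulk liver fewer cells of a type and less RNA per cell cannot be told apart. Genes above 0 numbered 11541 to 13015 in iAsF1-F and 12001 to 12881 in conF1-F livers. Read totals of the libraries are unknown, and the values carry no counting interval.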

How the data were processed

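Liver RNA from 3 iAsF1-F and 3 conF1-F mice was grouped by the sample labels. The authors deposited RPKM values made from the reads of each library. Per the submitters' processing notes, STAR 2.5.3a, HTSeq, DESeq2 1.8.2 and mm10 were used, and the program behind the RPKM values is not given in the sources used here. For 5436 genes (30.8%) the values are, by their decimals, means of 2 or more entries, and 1261 of the tested genes (19.6%) are listed at 0 in 1 to 5 livers. In 1 library, 13 cells shown as dates were converted back to numbers, and 13 symbols shown as dates were restored by gene ID.

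The 6448 genes that averaged 1 RPKM or more across all 6 livers were put on the scale log2(RPKM + 1) and tested two-sided in limma 3.58.1 (R 4.3.3), with group as the only term and a variance trend. P-values were adjusted by Benjamini-Hochberg across these genes, at a threshold of 0.05. This fold change understates that of low genes. Subunit ratios and single values were compared by two-sided exact permutation tests, whose smallest p is 0.1. P-values set a group difference against the spread between livers within the groups. In limma the variance of a gene is also drawn toward a trend over all tested genes. Stretches of 50 bases were matched between transcripts of GENCODE M21 (GRCm38), which also supplied positions. Protein sequences were not used here. Alternatives were a pseudocount of 0.1, no minimum, robust variances, 2 rescalings, the replicate number as a block and leaving out each liver. Python 3.11.15, numpy 2.4.6, pandas 2.3.3 and matplotlib 3.10.9 were used.

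Named genes are the 9 members, all genes of the lists of complex partners, kinases and phosphatases, pyruvate entry and other cycle enzymes, and, of the other lists, those with an unadjusted p under 0.05 or else the one of smallest p. Values of 1 gene of these lists are not reported here. Pseudogene copies were named after their values were seen. The members and lists were chosen with earlier results of these data known.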

Additional observations from a re-analysis of the deposited data

How the results depend on the processing

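The RPKM values carry no read depth, many are means of entries, and a listed 0 can be a failed estimate, which limits what Pdhb, Ogdh, Sdhc, Dlst and Pcx can show; with 3 livers a group, 1 liver can decide a call. Leaving out each liver in turn, 0 to 1 members were called. These were Pdhb without iAsF1-F replicate 1, with 28 of 6533 tested genes called, and Ogdh without iAsF1-F replicate 2, with 30 of 6449. An unadjusted p under 0.05 was reached by 0 to 1 members and 0 to 4 other pathway genes (0 without iAsF1-F replicate 1). The share of all tested genes at such a p was 4% to 5.22%. Groups did not overlap in 0 to 3 members, a count for which no share of all tested genes was taken. The members' median log2 fold change was -0.05 to 0.01. With no minimum, 1 member (Idh3a) had an unadjusted p under 0.05 and 1 had groups that did not overlap, against 3.41% and 8.12% of 17545 genes. With median-ratio rescaling 1 tested member had groups that did not overlap, again with no share taken over all tested genes. No pairing of the livers by number was seen, and the labels do not say whether a number stands for a litter. Deviations of same-numbered livers from their group means correlated at -0.068, 0.017 and 0.010, which cannot exclude a pairing. With the replicate number as a block 0 members were called, but so were 0 of all 6448 tested genes. In that fit 0 members had an unadjusted p under 0.05, against 4.36% of all tested genes. The cause of the shifts between settings was not tested. The direction of the log2 fold change turned with a liver left out for Pdha1 (-0.50 to 0.077), Mdh2 (-0.039 to 0.085), Dlat (-0.66 to 0.0071), Dld (-0.093 to 0.077), Pcx (-1.19 to 2.09), Idh3b (-0.41 to 1.74), Idh3g (-0.0135 to 0.11), Dlst (-2.06 to 1.70), Lias (-0.020 to 0.027), Csl (-0.054 to 0.0198), Gm6123 (-0.044 to 0.11) and Me1 (-1.68 to 2.02), none of them called. With a pseudocount of 0.1 Idh3b turned to -0.31 and the difference of Idh3a was -1.89. Treating 0s as missing, chosen after seeing the data, turned Ogdh to 0.20 and left Pdhb untested. Leaving out genes listed at 0, also chosen then, called 0 of the 6 members still tested, against 5 of 5187 tested genes. Pdhb and Ogdh were not tested in that fit, so it could not have called them.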

Other observations

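Me1, cytosolic malic enzyme, which makes pyruvate from malate, was listed at 0, 65.9 and 0 RPKM in iAsF1-F livers, against 31.6, 0 and 0 RPKM in conF1-F livers. Its processed pseudogene Gm7329 (chr1:65095227-65095436 in GRCm38) has 85.1% of its own 50-base stretches in Me1 but holds only 4.22% of those of Me1. Another processed pseudogene, Gm7049, holds 24.3% of those of Me1 and has no values here. Gm7329 was above 0 in every liver, at 67.4, 68.5 and 65.9 RPKM in iAsF1-F livers, against 38.05, 21.2 and 46.8 RPKM in conF1-F livers. The groups did not overlap for Gm7329, with a log2 fold change of 0.98 (SE 0.29, unadjusted p = 0.0175, adjusted p = 0.877 by limma, 0.251 to 0.923 over the alternatives). Me1 and Gm7329 were chosen after their values were seen, and which of them the reads came from was not tested.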
